A study of Mus musculus with 19 samples.

Results

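The genes described here are 41 markers of DNA replication and cell division, measured by RNA sequencing in hepatocytes of young and old mice. They were taken by gene symbol from a table of 24537 genes. The choice divides them into 17 genes of the G1/S transition, when a cell commits to copying its DNA, and 24 genes of G2 and mitosis (G2/M), when it divides. All 41 symbols were found. The libraries came from 19 male wild-type C57BL/6J mice with no treatment in the labels, 10 young (5mo) and 9 old (24mo), each library from polyadenylated RNA of hepatocytes obtained by perfusing the liver. Mice were culled on 2 days, 23 days apart. The first day held 5 young mice aged 140 days and 5 old mice aged 719 days, and the second held 5 young mice aged 163 days and 4 old mice aged 742 days, by the dates in the labels. Each library is named by its number in the labels. The labels give 1 number per library and do not state in words that each is a separate animal, so p-values measure the spread between these libraries. The purity of the hepatocytes is not given in the sources used here.

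In adult liver most hepatocytes rest outside the cell cycle and re-enter it after injury or loss of tissue. Entry releases E2F transcription factors from the retinoblastoma family of repressors, and E2F then switches on the genes for licensing origins, unwinding DNA and supplying nucleotides. Later, B-MYB and FOXM1 bind with the MuvB complex to a short promoter element, the cell cycle genes homology region (CHR), often next to CCAAT boxes bound by NF-Y, and switch on the genes for the mitotic kinases, spindle and kinetochore. In resting cells the DREAM complex holds both groups low.

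Promoter sequences show how the groups differ in what precedes their start sites. RefSeq promoters of GRCm38.p6, 250 bases before to 50 bases after the start, were matched for 33 of the 41 genes. Tpx2, Gins1, Mcm4, Ccna2, Ccne2, Kif20a, Aurkb and Foxm1 had none. The letters searched on both strands were TTTGAA and TTCGAA for the CHR, CCAAT for the NF-Y box, and TTTGGCGC, TTTCGCGC and TTCCCGCC for E2F. TTCGAA is its own reverse complement, and some E2F matches overlap one another. The 5 promoters printed here are those of Top2a, Mcm3, Mki67, Cdk1 and Mcm6. Top2a and Mcm3 are the genes that differed between ages. Mki67 and Cdk1 are the most used proliferation marker and the mitotic kinase. Mcm6 is another subunit of the helicase that holds Mcm3. These promoters were picked after the matches and values were seen. Each is written 5′ to 3′ on the gene's strand, the minus strand in all 5, with every match in capitals.
Top2a: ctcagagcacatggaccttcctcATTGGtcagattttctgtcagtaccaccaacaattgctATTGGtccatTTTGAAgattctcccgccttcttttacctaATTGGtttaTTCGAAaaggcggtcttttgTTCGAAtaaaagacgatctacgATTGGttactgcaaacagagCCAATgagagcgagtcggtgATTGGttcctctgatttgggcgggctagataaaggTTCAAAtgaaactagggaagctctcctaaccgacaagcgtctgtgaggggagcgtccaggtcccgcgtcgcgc
Mki67: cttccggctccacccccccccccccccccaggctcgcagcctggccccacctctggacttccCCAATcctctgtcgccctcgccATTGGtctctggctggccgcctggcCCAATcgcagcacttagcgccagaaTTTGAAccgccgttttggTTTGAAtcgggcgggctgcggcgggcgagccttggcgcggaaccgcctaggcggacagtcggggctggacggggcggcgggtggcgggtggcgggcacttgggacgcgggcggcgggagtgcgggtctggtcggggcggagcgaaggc
Cdk1: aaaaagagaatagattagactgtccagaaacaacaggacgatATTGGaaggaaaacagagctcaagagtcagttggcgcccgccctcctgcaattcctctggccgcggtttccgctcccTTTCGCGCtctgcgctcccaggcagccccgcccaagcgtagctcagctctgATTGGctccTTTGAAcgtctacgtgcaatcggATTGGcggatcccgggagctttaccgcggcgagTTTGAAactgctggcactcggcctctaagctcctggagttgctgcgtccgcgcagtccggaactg
Mcm3: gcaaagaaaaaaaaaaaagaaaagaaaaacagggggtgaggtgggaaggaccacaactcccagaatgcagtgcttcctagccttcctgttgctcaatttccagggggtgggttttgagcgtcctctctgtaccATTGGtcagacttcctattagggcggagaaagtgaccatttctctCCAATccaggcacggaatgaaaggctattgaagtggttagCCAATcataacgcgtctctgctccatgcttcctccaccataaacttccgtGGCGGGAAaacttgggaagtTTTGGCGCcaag
Mcm6: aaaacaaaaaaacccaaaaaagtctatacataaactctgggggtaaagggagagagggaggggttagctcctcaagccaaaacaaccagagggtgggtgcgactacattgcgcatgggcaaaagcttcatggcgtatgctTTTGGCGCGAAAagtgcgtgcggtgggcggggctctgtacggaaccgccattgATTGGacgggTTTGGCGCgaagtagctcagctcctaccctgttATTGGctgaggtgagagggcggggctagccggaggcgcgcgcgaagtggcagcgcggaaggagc
The positions are chr11:99024140-99024439 for Top2a, chr7:135716330-135716629 for Mki67, chr10:69352863-69353162 for Cdk1, chr1:20820263-20820562 for Mcm3 and chr1:128359656-128359955 for Mcm6. The start used by RefSeq for Mcm3 lies 99 bases from the start of the transcript counted in the deposited table, and for the other 4 it is the same base. CHR letters were found in 15 of 19 G2/M promoters (78.9%), in 2 of 14 G1/S promoters (14.3%) and in 17.2% of all 17595 promoters. The 2 G1/S promoters that held them were those of Mcm2 and Mcm7. The NF-Y box was found in 17 of 19 G2/M promoters (89.5%), in 8 of 14 G1/S promoters (57.1%) and in 38.8% of all promoters. CHR and NF-Y letters stood together in 15 of 19 G2/M promoters, against 7.17% of all. E2F letters had the opposite distribution, with 6 of 14 G1/S promoters (42.9%), 1 of 19 G2/M promoters (5.26%) and 3.92% of all. The single G2/M promoter with E2F letters was that of Cdk1. These matches describe letters in a window and were not tested for binding.

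Most of these genes were expressed at low levels, and the replication genes stood above the mitotic ones. Levels between genes are compared per length, as CPM per kilobase of counted transcript (CPM being counts scaled to a common library size by the trimmed mean of M-values, TMM), taken as the median over the 19 mice. Pcna, the sliding clamp of DNA polymerase, was highest at 18.3 CPM per kilobase, followed by Tk1, a thymidine kinase, at 15.2 and Mcm7, a subunit of the replicative helicase, at 5.41. Gins1, a helicase cofactor, had 2.47 CPM per kilobase and Rrm1, the large subunit of ribonucleotide reductase, had 2.45. The highest G2/M gene was Cenpa, the centromeric histone H3 variant, at 1.82 CPM per kilobase in rank 7. Of the 18 lowest genes, 17 were G2/M genes, and the other was Cdc6, which loads the helicase at origins. Mki67, the gene of the Ki-67 protein, ranked 34 at 0.120 CPM per kilobase. Bub1, a checkpoint kinase, was lowest at 0.0130 CPM per kilobase and had 0 counts in 5 of 19 mice, where a count of 0 allows up to 3 counts per library. Neighbours in this order overlapped in their ranges over mice, except Mcm7 above Gins1. Pcna and Tk1, for example, spanned 15.6 to 31.7 and 4.41 to 19.9 CPM per kilobase.

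Before any comparison, 4 libraries stood apart. Old mouse 1187 was far higher in most of these genes and in immune cell markers, and young mice 1184, 1186 and 1188 had the lowest summed hepatocyte markers, 98956 to 101226 CPM against 121877 to 203676 CPM in the other 16 mice. Summed over the 17 G1/S genes, the level was 88.2 to 116.7 CPM in the 10 young mice (median 104.0) and 93.4 to 213.7 CPM in the 9 old mice (median 106.5). Summed over the 24 G2/M genes, it was 15.04 to 32.3 CPM in young mice (median 19.5) and 17.8 to 129.6 CPM in old mice (median 24.5). Both top values were those of 1 old mouse, 1187. Without it the old mice reached 109.6 CPM for G1/S genes and 37.3 CPM for G2/M genes, so the ages overlapped in both sums. The sums do not show whether few cells held much of this RNA or many held little, since fewer cells of a type and less RNA per cell cannot be told apart in bulk libraries.

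**Figure D1:**
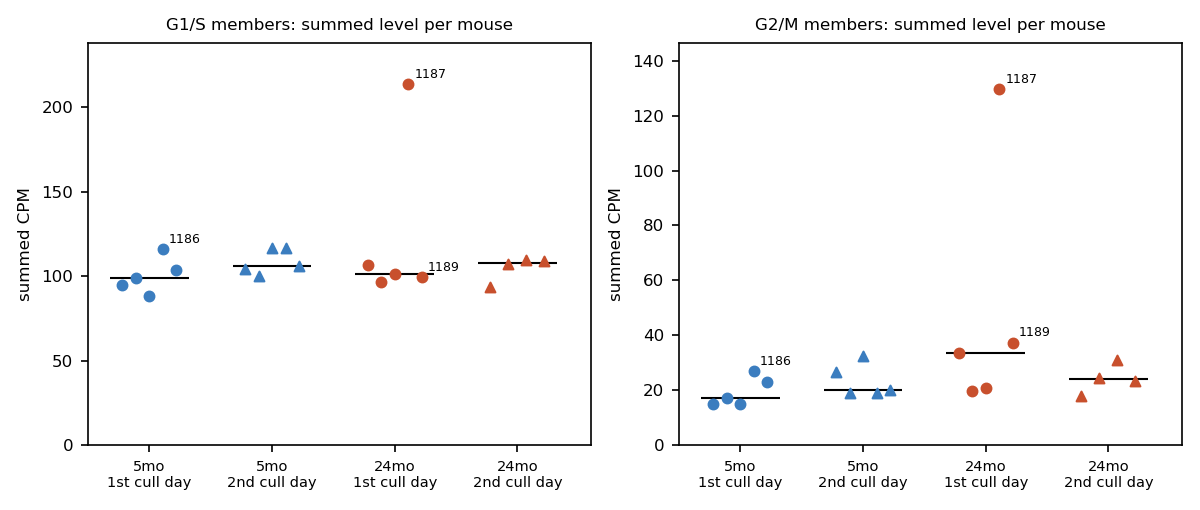
Summed TMM-scaled CPM of the 17 G1/S genes (left) and the 24 G2/M genes (right) in each mouse, by age and cull day; points are mice, black lines are medians of each age and cull day, and mice 1186, 1187 and 1189 are labelled. Old mouse 1187 lies at 213.7 and 129.6 CPM, above the highest of the other 18 mice at 116.7 and 37.3 CPM.

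Between ages, 2 of the 32 genes that passed the filter on low counts were higher in old mice and none was lower. They were Top2a, the topoisomerase that untangles sister chromosomes, and Mcm3, a subunit of the helicase ring. The share of 6.25% of genes called higher stands beside 16.3% of all 12269 genes tested, and 14.5% of all genes were called lower. All calls come from edgeR's quasi-likelihood test in a model of age and cull day, adjusted by the Benjamini-Hochberg method over all genes tested, at 0.05. At an unadjusted p of 0.05, 7 of the 32 genes passed (21.9%), all 7 higher in old mice, beside 21.8% of all genes that passed and were higher and 42.3% that passed in either direction. The median log2 fold change of old against young was 0.48 over the 32 genes, 0.19 over 16 G1/S genes and 0.66 over 16 G2/M genes, against -0.003 over all genes tested. Among the 32 genes 26 had a fold change above 0, and all 16 of the G2/M genes did. Passing the filter favours genes that were high in 1 age, so these counts do not stand for all 41 genes. With library totals in place of TMM scaling, the calls over all genes divided into 2098 higher and 1169 lower, against 2005 and 1780, and the same 2 genes were called. DESeq2 called 5 of the 32 genes higher, adding Mki67, Tpx2 and Bub1b, and none lower (15.6%, beside 16.4% of all genes higher by DESeq2).

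Without old mouse 1187, the median log2 fold change fell to 0.11 over 30 tested genes, to -0.03 over the G1/S genes and to 0.31 over the G2/M genes. Of the 30 genes 1 was then called higher, Top2a, beside 12.4% of all genes, and 12 had a fold change below 0. No gene had all 9 old mice above all 10 young mice, beside 0.994% of all genes that passed the filter. Top2a had the most old mice above every young mouse, with 6 of 9.

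**Figure D2:**
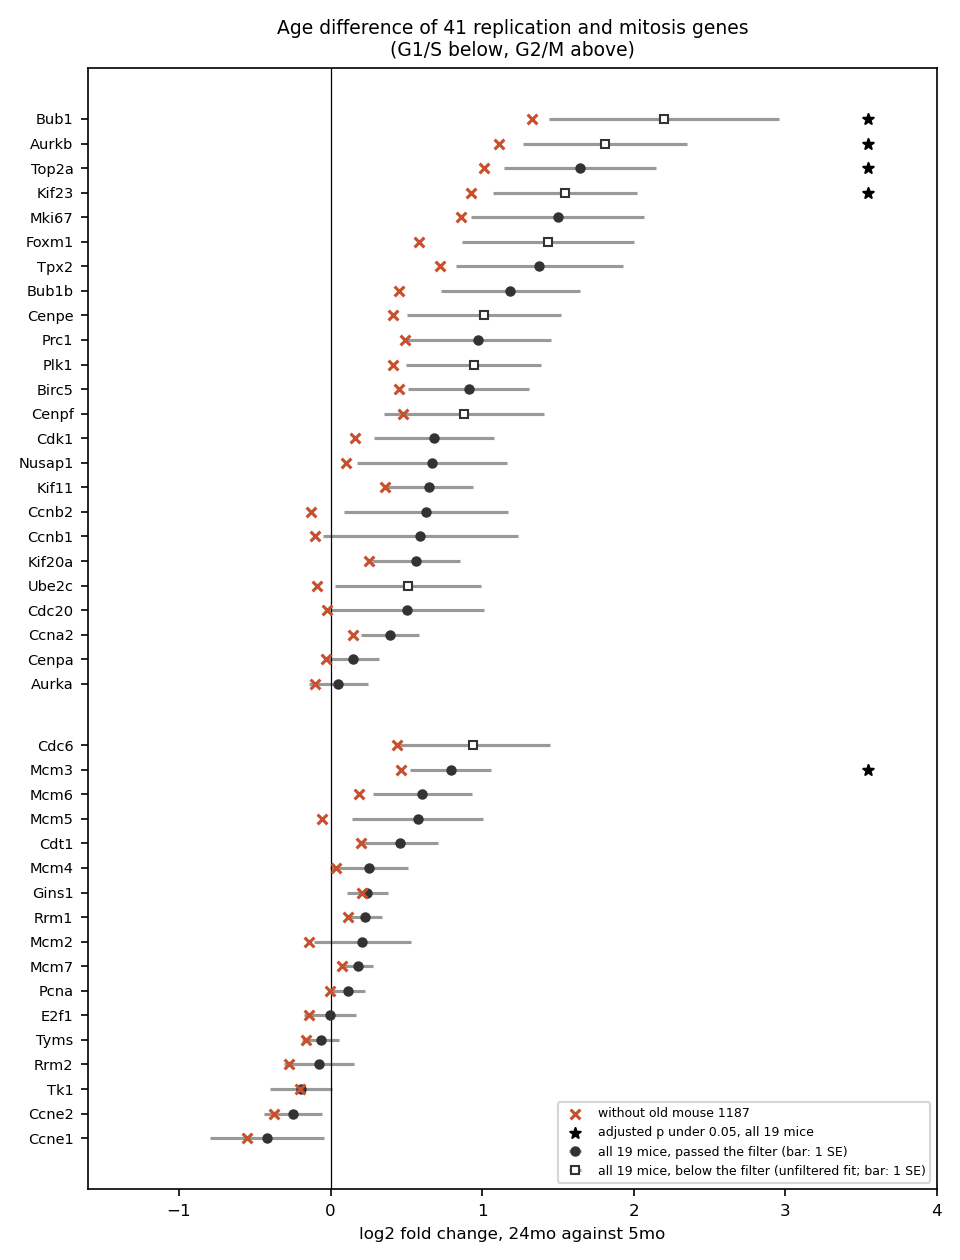
Log2 fold change of old against young mice for the 41 genes, with G2/M genes above and G1/S genes below; filled circles are genes that passed the filter and open squares the 9 genes below it, with bars of 1 SE, and crosses are the fits without old mouse 1187, from the unfiltered fit where a gene did not pass there. Stars mark adjusted p under 0.05; most crosses lie to the left of their circle, and the median over tested genes moves from 0.48 to 0.11.

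Of the 16 tested G1/S genes, Mcm3 was the 1 called between ages, and the other helicase subunits did not pass the test. The Mcm2 to Mcm7 proteins form the ring that opens the double helix. Mcm3 had 45.5 to 124 counts in young mice (median 59.5) and 61 to 407 counts in old mice (median 99). In CPM it had 2.58 to 6.91 in young mice and 3.17 to 17.8 in old mice, so the ages overlapped, and 8 of 9 old mice lay above the young median of 3.23 CPM. Its log2 fold change was 0.79 (SE 0.27, edgeR adjusted p = 0.0312). Without mouse 1187 it was 0.47 (SE 0.19, edgeR adjusted p = 0.0713), and the call was also lost without young mice 1180, 1182 or 1184 or without old mice 1240 or 1242, with adjusted p-values of 0.0532 to 0.0579. Mcm6 followed at 0.60 (SE 0.33, edgeR adjusted p = 0.167) and Mcm5 at 0.58 (SE 0.43, adjusted p = 0.328). Mcm5 illustrates how 1 library sets such a value. It spanned 1.63 to 5.24 CPM in young mice and 1.08 to 4.49 CPM in the other 8 old mice, against 18.5 CPM in mouse 1187, and its fold change without that mouse was -0.05. Mcm2 (0.21), Mcm4 (0.25) and Mcm7 (0.18) gave edgeR adjusted p-values of 0.186 to 0.650.

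Neither the loading factors nor the S phase switches passed the test. Cdt1, which loads the helicase with Cdc6, had a median of 1.71 CPM in young and 2.11 CPM in old mice (log2 fold change 0.46, SE 0.25, edgeR adjusted p = 0.176). Cdc6 did not pass the filter and had 0 to 5 counts in young mice and 1.5 to 7.5 counts in old mice other than 1187, which had 25.5 counts. Gins1 had a median of 2.50 CPM in young and 2.95 CPM in old mice (0.24, SE 0.14, edgeR adjusted p = 0.184). Of the switches into S phase, cyclin E1 (Ccne1) and cyclin E2 (Ccne2), partners of CDK2, had medians of 0.803 and 1.30 CPM in young mice and 0.520 and 1.07 CPM in old mice. Neither passed the test, with log2 fold changes of -0.42 and -0.25 and edgeR adjusted p-values of 0.422 and 0.343. For Ccne2, 5 of 9 old mice lay below every young mouse, whose range was narrow at 1.16 to 1.64 CPM. E2f1, the transcription factor of the group, had a fold change of -0.01 (SE 0.17).

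Genes for the clamp and for nucleotide supply included the most abundant of the 41, and none passed the test. Pcna spanned 20.5 to 27.5 CPM in young and 19.6 to 28.8 CPM in the other 8 old mice, with 39.7 CPM in mouse 1187 (log2 fold change 0.12, SE 0.11, edgeR adjusted p = 0.428). Rrm1 gave 0.23 (SE 0.11, edgeR adjusted p = 0.128). Rrm2, the small subunit of the same reductase, and Tyms, thymidylate synthase, had fold changes of -0.08 (SE 0.23) and -0.07 (SE 0.12). Tk1 salvages thymidine. It had 9.42 to 27.0 CPM in young mice (median 24.4) and 6.00 to 24.4 CPM in old mice (median 18.3), and none of the 9 old mice lay above the young median. For Rrm2, Tyms, Ccne2 and E2f1, 2 of 9 old mice did. The fold change of Tk1 was -0.20 (SE 0.20, edgeR adjusted p = 0.486). Without mouse 1187, Tk1 was at -0.20, Rrm2 at -0.27, Ccne2 at -0.37 and Ccne1 at -0.55.

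Of the G2/M genes that passed the filter, Top2a and Mki67 gave the largest differences. Top2a had 5.5 to 23.5 counts in young mice (median 16.25) and 9.5 to 281.5 counts in old mice (median 29.5). In CPM these were 0.336 to 1.34 (median 0.854) and 0.515 to 12.3 (median 1.50). Old mice 1187, 1189, 1240 and 1181 were highest at 281.5, 56.5, 59 and 42.5 counts, old mice 1183 and 1236 were at 9.5 and 10 counts, within the young range, and the ages overlapped. The log2 fold change was 1.64 (SE 0.50, edgeR adjusted p = 0.0195). It was 1.01 (SE 0.35, edgeR adjusted p = 0.0437) without mouse 1187 and passed in all 19 fits that left out 1 mouse. Without mice 1187 and 1189 together it was 0.86 with an adjusted p of 0.0890, and without young mice 1184, 1186 and 1188 it was 1.67 with an adjusted p of 0.0734. Mki67, which coats mitotic chromosomes, had 3 to 42 counts in young mice (median 19) and 9.5 to 370.5 counts in old mice (median 29). Its fold change was 1.50 (SE 0.57, edgeR adjusted p = 0.0517) with mouse 1187 and 0.86 (SE 0.43, adjusted p = 0.146) without it.

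**Figure D3:**
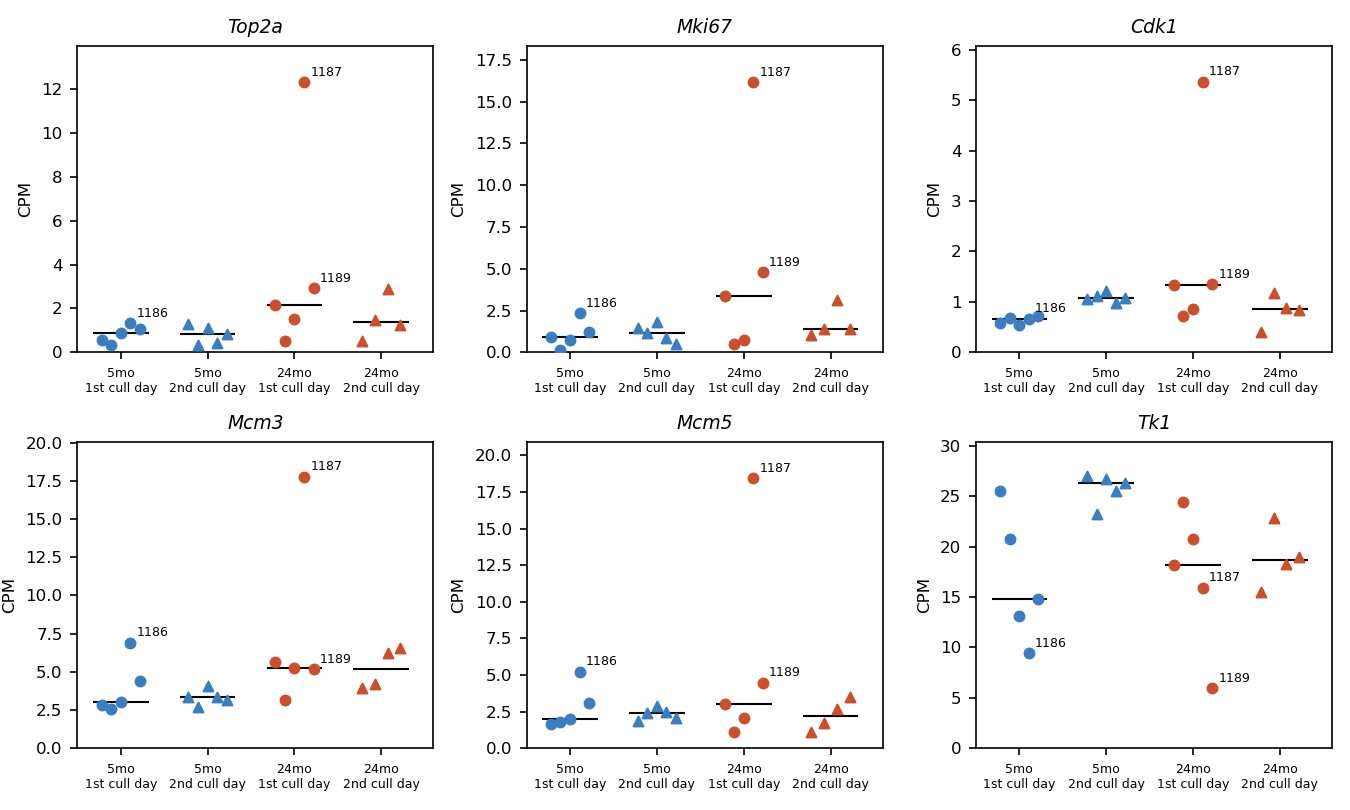
TMM-scaled CPM of Top2a, Mki67, Cdk1, Mcm3, Mcm5 and Tk1 in each mouse by age and cull day, with medians as black lines and mice 1186, 1187 and 1189 labelled; the vertical axes differ between genes. Mouse 1187 is highest in 5 of the 6 panels, and in that of Tk1 the 4 old mice of the second cull day (15.5 to 22.8 CPM) lie below the 5 young mice of that day (23.3 to 27.0 CPM).

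The cyclins and the kinase that drive mitosis overlapped between ages. Cdk1, the mitotic cyclin-dependent kinase, had 10.5 to 22.5 counts in young mice and 8.5 to 26.5 counts in the other old mice, against 123 counts in mouse 1187. Its log2 fold change was 0.68 (SE 0.40, edgeR adjusted p = 0.197), and 0.16 (SE 0.22) without that mouse. Cyclin A2 (Ccna2) gave 0.39 (SE 0.19, edgeR adjusted p = 0.128). The B cyclins Ccnb1 and Ccnb2 had medians of 7.25 and 9.25 counts in young and 9.5 and 9.5 counts in old mice. They passed the filter with mouse 1187, where they had 98.5 and 101.5 counts, and did not pass without it. Foxm1, a transcription factor of the group, did not pass the filter, with 2 to 10 counts in young mice, 3 to 11 counts in the other old mice and 83.5 counts in mouse 1187.

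The kinases Aurkb, Bub1 and Plk1 had at most 17 counts in any mouse other than 1187. The unfiltered fit, in which 13.3% of 17806 genes were called higher, called 5 of all 41 genes higher (12.2%). These were Top2a, Mcm3 and 3 of the 9 genes below the filter, Aurkb, Kif23 and Bub1. Aurkb, the kinase of the chromosomal passenger complex, had 1 to 8 counts in young mice (median 3.75) and 4 to 16 counts in the other 8 old mice, with 90.5 counts in mouse 1187. All 9 old mice lay above the young median in CPM and 4 of them above every young mouse. Its log2 fold change was 1.81 (edgeR adjusted p = 0.0193) and 1.11 without mouse 1187 (edgeR adjusted p = 0.0350). Bub1 had 0 to 2 counts in young mice and 0 to 6.5 counts in the other old mice, with 29.5 counts in mouse 1187 (2.20, edgeR adjusted p = 0.0386). Since both ages lie near the floor of 3 counts, that fold change carries little precision. Without mouse 1187 it was 1.33 and not called (edgeR adjusted p = 0.149). Bub1b, the BubR1 checkpoint protein, gave 1.19 (SE 0.46, edgeR adjusted p = 0.0565). Birc5, survivin of the passenger complex, gave 0.91 (SE 0.40, edgeR adjusted p = 0.0890). Without mouse 1187, Bub1b and Birc5 were each at 0.45 (edgeR adjusted p = 0.215 and 0.264). Plk1, a mitotic kinase below the filter, had medians of 6.25 counts in young and 12.5 counts in old mice (0.94, edgeR adjusted p = 0.129). Aurka, the centrosomal kinase, was near 0 at 0.05 (SE 0.19). Cdc20 and Ube2c, which start the destruction of cyclins, gave 0.50 (SE 0.51, edgeR adjusted p = 0.477) and 0.51 (edgeR adjusted p = 0.442).

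Spindle and centromere genes had the same arrangement of 1 high library and overlapping ages. Kif23, a motor of the midbody, had 3 to 11.5 counts in young mice (median 4.5) and 4 to 23 counts in the other old mice, with 81 counts in mouse 1187. Its log2 fold change was 1.55 (edgeR adjusted p = 0.0228), and 0.93 without mouse 1187 (edgeR adjusted p = 0.0783). The spindle motor Kif11 gave 0.65 (SE 0.30, edgeR adjusted p = 0.101) and the midzone motor Kif20a gave 0.56 (SE 0.29, edgeR adjusted p = 0.146). For Kif20a all 9 old mice lay above the young median of 2.15 CPM, and 1 lay above every young mouse. The microtubule-binding factors Tpx2, Prc1 and Nusap1 gave 1.38, 0.97 and 0.67, with edgeR adjusted p-values of 0.0636, 0.133 and 0.319. Without mouse 1187 these were 0.72, 0.49 and 0.10. Tpx2 activates Aurora A on the spindle, and it had 2 to 20.5 counts in young mice, 2.5 to 25.5 counts in the other old mice and 140.5 counts in mouse 1187. At the centromere, Cenpa gave 0.15 (SE 0.17, edgeR adjusted p = 0.534). Cenpe and Cenpf, large kinetochore proteins below the filter, had medians of 5.5 and 3.75 counts in young and 8 and 8.5 counts in old mice.

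Old mouse 1187 had the highest level of 38 of the 41 genes. The exceptions were Ccne1, highest in young mouse 1186, Tyms, highest in young mouse 1243, and Tk1, highest in young mouse 1235. Among genes that passed the filter, 29 of 32 (90.6%) were highest in this mouse, beside 19.9% of all genes. It lay at least 2-fold above the highest of the other 18 mice for 27 of 41 genes, 22 of 24 G2/M and 5 of 17 G1/S genes. Of the 32 that passed the filter 18 did so (56.2%), beside 5.6% of all genes. Relative to the median of the other 18 mice the level was 2.25-fold in the median G1/S gene and 7.52-fold in the median G2/M gene. Among the genes above the floor of 3 counts in most mice it was 18.02-fold for Foxm1, 13.6-fold for Mki67, 11.5-fold for Top2a, 8.21-fold for Mcm5, 1.74-fold for Pcna and 0.768-fold for Tk1. Within the helicase ring it ran from 1.69-fold for Mcm7 to 8.21-fold for Mcm5.

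**Figure D4:**
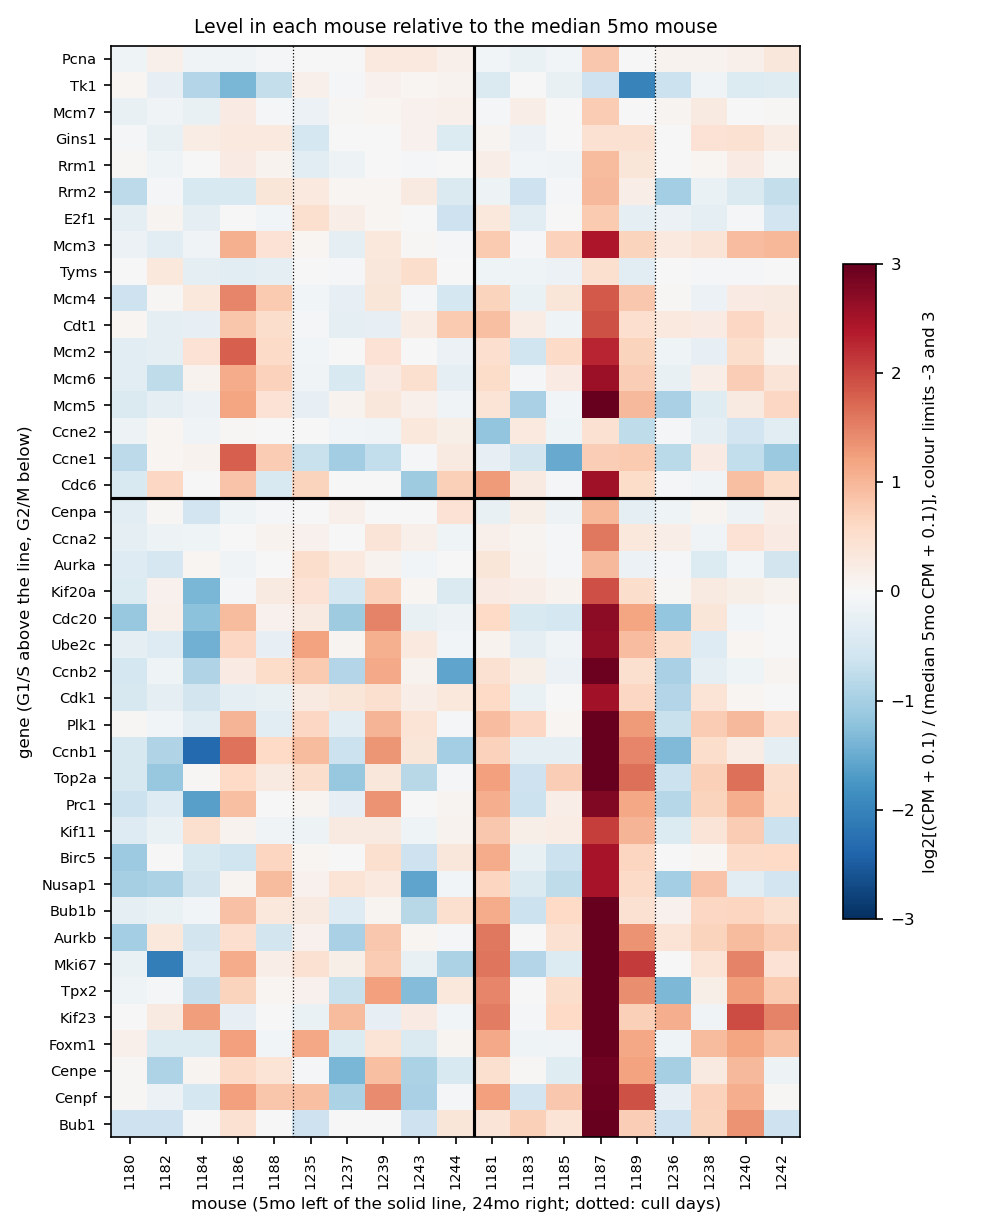
Level of each gene in each mouse as log2 of CPM plus 0.1 over the median young mouse's CPM plus 0.1, with colour limits at -3 and 3; mice are columns in the order of age and cull day, genes are rows ordered by level per length, with the G1/S genes on top. The column of old mouse 1187 is dark across nearly all G2/M genes, and the row of Tk1 shows no such value.

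The same mouse differed in markers of other cells, and their part in its high division genes was not tested directly. Its 12 macrophage markers summed to 3313 CPM, where the other 18 mice had 68.0 to 807 CPM, and Clec4f, a marker of Kupffer cells, the resident macrophages of the liver, had 10097 counts. Clec4f had 338.5 to 1454 counts in young mice and 181.5 to 1534 counts in the other old mice. The T and NK cell list summed to 38.9 CPM against 1.05 to 4.17 CPM in the other 18, with 50 counts of Cd3e, and the B and plasma cell list to 18.6 CPM against 0.274 to 4.69 CPM. It was also highest in the stellate cell list (344.9 CPM against at most 175.7), the endothelial list (589.5 against at most 482.0) and the neutrophil list (20.5 against at most 7.10). Its hepatocyte list, at 121877 CPM, was the lowest of the 9 old mice (the other 8 had 141681 to 203676 CPM) and above only young mice 1184, 1186 and 1188 of all 19, and Alb, the albumin gene, had 2135730 counts. Alb had at least 1097060 counts in every mouse, which does not measure the purity of the hepatocytes. Among the other 18 mice some were high or low in both the G2/M and the macrophage sums and some in 1 of them. Old mice 1181 (33.4 CPM of G2/M genes and 477 CPM of macrophage markers) and 1240 (31.0 and 478 CPM) were high in both, and young mice 1180 (15.1 and 100.2 CPM) and 1182 (16.9 and 152 CPM) and old mouse 1183 (19.7 and 68.0 CPM) were low in both. Old mouse 1189, second in G2/M genes at 37.3 CPM, had 314 CPM of macrophage markers, young mouse 1239 had 32.3 CPM of G2/M genes with 119 CPM of macrophage markers, and old mouse 1242 had 23.5 CPM with 807 CPM. Young mouse 1184 had the lowest G2/M sum of all mice, 15.04 CPM, with the highest macrophage sum of the young mice, 486.4 CPM. Old mouse 1236 had the lowest G2/M sum of the old mice, 17.8 CPM, with 515 CPM of macrophage markers.

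**Figure D5:**
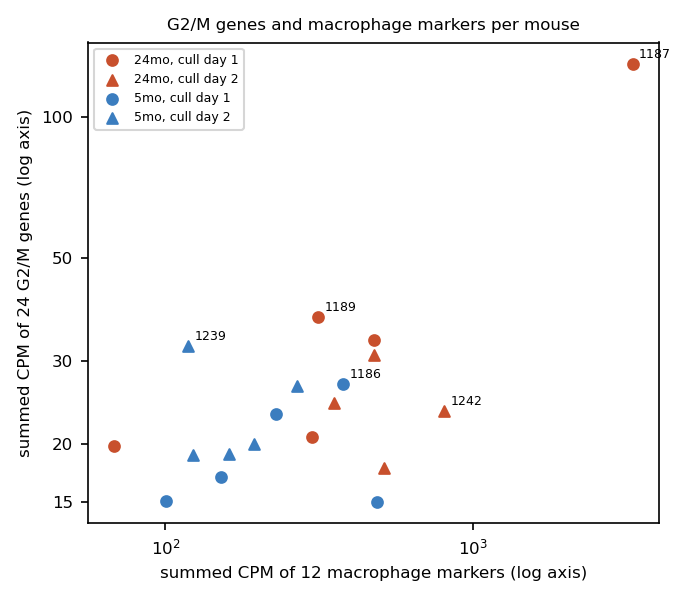
Summed CPM of the 24 G2/M genes against summed CPM of 12 macrophage markers in each mouse, both on log axes, with colour for age and shape for cull day. Mouse 1187 stands alone at 3313 and 129.6 CPM, and of the labelled mice 1186 (378 and 26.8 CPM) lies high in both sums among young mice, while 1189 (314 and 37.3 CPM), 1239 (119 and 32.3 CPM) and 1242 (807 and 23.5 CPM) differ in which of the sums is high.

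Markers of other cells also differed between ages in the same fit, and these differences stand beside every age difference above. Of the macrophage list 12 of 12 genes were higher in old mice with mouse 1187 and 2 of 12 without it (median log2 fold change 1.66 and 0.86). On the second cull day alone, which does not hold that mouse, 12 of 12 were higher (median 1.60). On the first cull day alone 0 of 12 were called higher (median 1.665), beside 1.88% of all genes. That day gave 0 of 11 for the endothelial and 3 of 10 for the stellate list. Summed macrophage markers were 100.2 to 486.4 CPM in young mice and 68.0 to 3313 CPM in old mice. The endothelial list had 8 of 11 genes higher and sums of 165.8 to 295.3 CPM in young and 173.4 to 589.5 CPM in old mice, though its defining marker Stab2 did not pass (0.46, edgeR adjusted p = 0.0771). The stellate cell list had 10 of 10 genes higher and sums of 36.2 to 100.7 CPM in young and 90.8 to 344.9 CPM in old mice, with Lrat, which makes retinyl esters, higher by 1.52 (edgeR adjusted p = 3.72e-05). Of the low lists few genes passed the filter. The T and NK list had 0 of 1 tested genes higher (none lower), the B and plasma list 1 of 1 (0 of 1 on the second cull day), the neutrophil list 1 of 1 (0 of 1 without mouse 1187, 2 of 2 on the second cull day) and the cholangiocyte list 0 of 2 (none lower). Their sums in young and old mice spanned 1.05 to 3.62 and 1.51 to 38.9 CPM for T and NK, 0.274 to 2.75 and 1.26 to 18.6 CPM for B and plasma, 0.165 to 6.19 and 1.04 to 20.5 CPM for neutrophil, and 5.56 to 170.7 and 8.02 to 63.7 CPM for cholangiocyte genes. The median counts of defining markers in young and old mice were 1 and 4 for Cd3e, 1 and 13.5 for S100a8 and 0.75 and 1 for Krt19, and Cd3e, S100a8 and Krt19 were at 0 in at least 1 young mouse. The erythroid list had 3 of 5 tested genes higher and 1 lower, Alas2 (-0.50, edgeR adjusted p = 0.000942), with sums of 82.9 to 154.9 CPM in young and 64.9 to 112.6 CPM in old mice, most of it Alas2 (means of 122.1 of 125.7 CPM in young and 85.1 of 93.5 CPM in old mice). On the second cull day alone, and with the score described next, 0 of 5 were higher. The hepatocyte list had 2 of 10 genes higher and 4 lower, and Alb was higher by 0.47 (edgeR adjusted p = 0.0262), and was at 0.23 (edgeR adjusted p = 0.167) without young mice 1184, 1186 and 1188.

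An other-cell score, the mean log2 CPM of 35 tested genes of the macrophage, endothelial, stellate, T and NK and B and plasma lists, was 2.23 to 3.80 in young mice and 2.47 to 5.75 in old mice, with 5.75 in mouse 1187. With this score as a covariate, 0 of the 32 genes were called by edgeR, beside 12.2% of all genes in either direction, and the median log2 fold change was -0.15, with 26 of 32 below 0. At an unadjusted p of 0.05, 2 genes passed (6.25%), Mcm2 and Mcm5, both lower in old mice, beside 15.1% of all genes that were lower and 29.1% in either direction. Top2a then gave 0.13 (edgeR adjusted p = 0.864) and Mcm3 gave -0.05 (edgeR adjusted p = 0.893). The score and age overlap, and the score contains no division gene. The same covariate turned the macrophage list, whose genes are part of the score, from 12 of 12 higher to 0 higher and 8 of 12 lower (median -0.53). The stellate list, also part of the score, kept 6 of 10 higher (median 0.72). The endothelial list had 0 of 11 higher and 1 lower (median 0.025). Values in this fit are therefore differences at an equal score and not differences in level. Without mouse 1187, which had the highest score, the same covariate also left 0 of 30 genes called, beside 18% of all genes in either direction. The sign of the median then turned, to 0.055 over the 30 genes (17 above 0) and 0.22 over 14 G2/M genes, with 0.37 for Top2a and 0.08 for Mcm3.

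Young mouse 1186 was high in part of the genes of the start of replication. It was the highest of the other 18 mice for 8 genes, which were Ccne1, Mcm2, Mcm3, Mcm4, Mcm5, Mcm6, Ccnb1 and Foxm1. For Ccne2, Mcm7, E2f1, Cdt1, Cdc6 and Gins1 another mouse was highest. The G1/S sum of mouse 1186, 116.2 CPM, was below those of young mice 1239 (116.7 CPM) and 1243 (116.6 CPM). Mouse 1186 had 53.5 counts of Ccne1 against 5.5 to 26.5 in the other young mice, 177.5 counts of Mcm2 against 41 to 75.5, and 152 counts of Mcm4 against 36.5 to 96.5. Its Cdk1 and Top2a, at 12.5 and 23.5 counts, were within or at the top of the young range. Other genes moved with this mouse. It had 2704 counts of Spp1, a marker of bile duct cells and of injury, and 148513 counts of Saa1, an acute phase gene (Spp1 and Saa1 were picked after their values were seen). Spp1 made up 150.8 of its 170.7 CPM of the cholangiocyte list. Saa1 was also high in young mice 1184 (93494 counts) and 1188 (58112 counts), where the young median was 524.5 counts, and their Mcm2 was within the 41 to 75.5 counts given above. Its Krt19, a defining marker of bile duct cells, had 0.5 counts. The part of these in its replication genes was not tested. Old mouse 1189, with 92 counts of Mki67, the second highest, had 1073 counts of Spp1 and 2711 counts of Saa1.

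Fitted alone, the cull days gave age differences of different size, and the interaction of age and cull day was called for none of the 32 tested genes by edgeR or DESeq2. On the first day alone, 0 of 33 tested genes were called by edgeR, beside 3.67% of all genes. At an unadjusted p of 0.05, 11 passed (33.3%), all 11 G2/M genes and higher in old mice, beside 14.1% of all genes that were higher and 26.6% in either direction. Without mouse 1187, which belongs to that day, 4 of 33 passed (12.1%), all 4 G2/M genes and higher, beside 10.5% of all genes that were higher and 20.4% in either direction, and 0 were called, beside 1.98% of all genes. The median log2 fold change of G2/M genes on that day was 1.45 with mouse 1187 and 0.485 without it. On the second day alone it was 0.05, and 1 of 31 genes was called higher, Mcm3 (0.66, edgeR adjusted p = 0.0269), beside 12.2% of all genes. On that day 2 were called lower, Rrm2 (-0.64, edgeR adjusted p = 0.0438) and Tk1 (-0.44, edgeR adjusted p = 0.0142), beside 7.15% of all genes. Mcm3 had 2.69 to 4.08 CPM in young and 3.96 to 6.59 CPM in old mice of the second day, and Rrm2 had 3.33 to 5.54 and 2.16 to 3.94 CPM. The interaction of age and cull day was called by edgeR for 0% of all 12269 genes, with 799 (6.51%) at an unadjusted p of 0.05 and 10 called by DESeq2. Of the 32 genes tested for it, 4 (12.5%) had an unadjusted interaction p under 0.05 by edgeR, which were Cdk1, Ccnb2, Aurka and Rrm2. Without mouse 1187 the first day gave 0.29 for Mcm3 and 1.09 for Top2a, neither called.

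Of the 32 genes, Cdk1 had the smallest unadjusted interaction p by edgeR, while the interaction was larger in size for Ccnb2 (-2.16) and Ccnb1 (-2.04). For Cdk1, young mice had 0.547 to 0.713 CPM on the first day and 0.982 to 1.21 CPM on the second, with no overlap. Old mice had 0.727 to 5.37 CPM on the first day and 0.412 to 1.17 CPM on the second. All 5 old mice of the first day were therefore above all 5 young mice of that day, while on the second day the old median (0.865 CPM) was below the lowest young value. The interaction was -1.99 (SE 0.65, unadjusted p = 0.00645, edgeR adjusted p = 0.650), and -1.14 (SE 0.36, edgeR adjusted p = 0.434) without mouse 1187. Within young mice the day difference was 0.78 (SE 0.19, edgeR adjusted p = 0.0513). In the fit over both ages the cull day itself was called for none of the 32 genes by edgeR, beside 12.3% of all genes, with 3 at an unadjusted p of 0.05, beside 30% of all genes in either direction and 16.7% lower (Ccne1, Mcm2 and Mcm4, lower on the second day) and 1 called by DESeq2, Mcm4.

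In CPM, Tk1 was the only one of the genes below the median of the other mice in mouse 1187. It shares ground with a neighbour. Its counts were lowest in old mouse 1189 (115) and young mouse 1186 (169), the mice that were high in Mki67 and Mcm2, and mouse 1187 had 365 counts, equal to the old median. Tk1 overlaps Afmid, kynurenine formamidase, on the opposite strand, with 83 exon bases shared. Afmid had 918 to 2869 counts, also lowest in mouse 1189 (918 counts) and next lowest in mouse 1186 (1353 counts). On the second cull day both were lower in old mice, Afmid by a log2 fold change of -0.45 (edgeR adjusted p = 0.00268), while over both days Afmid was not called (-0.29, edgeR adjusted p = 0.177). The strand setting of the counting is not given in the sources used here, so reads of the pair cannot be told apart, and the Tk1 values may hold reads of Afmid. The same limit holds for Kif20a with Cdc23 (1271 shared exon bases), Ccna2 with Exosc9 (378), Ccne2 with Ints8 (336), Nusap1 with Oip5 (172) and Cdc20 with Elovl1 (53). Beside Ccne2 at -0.25, Ints8 was lower in old mice (-0.29, edgeR adjusted p = 0.00380). Cdc23 was at 0.11 (edgeR adjusted p = 0.304) beside Kif20a at 0.56. Exosc9 was at -0.10 (edgeR adjusted p = 0.404) beside Ccna2 at 0.39, and Elovl1 at -0.02 (edgeR adjusted p = 0.863) beside Cdc20 at 0.50.

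Other genes of the same processes were tested in the same fit. Of 40 other replication genes 34 passed the filter, and 5 were higher in old mice (14.7%, beside 16.3% of all genes) and none lower, with a median log2 fold change of 0.14. Chaf1b, a subunit of the histone chaperone CAF-1, had 6.5 to 30 counts in young and 25.5 to 87.5 counts in old mice (1.04, SE 0.25, edgeR adjusted p = 0.00575). Lig1, the ligase that joins Okazaki fragments, had 27.5 to 59.5 counts in young and 56.5 to 244.5 counts in old mice (1.00, SE 0.22, edgeR adjusted p = 0.00332). The polymerase alpha-primase complex contributed Pola2 (0.47), Pola1 (0.52) and Prim1 (0.42), with edgeR adjusted p-values of 0.00583, 0.0347 and 0.0356. Without mouse 1187, 3 of 34 were called (8.82%, beside 12.4% of all genes), Chaf1b, Lig1 and Pola2. With the other-cell score described above as a covariate, 2 of 34 were called, Pola2 (0.45, edgeR adjusted p = 0.0491) and Dna2, a nuclease and helicase (0.42, edgeR adjusted p = 0.0373), beside 6.24% of all genes called higher, and the median was -0.013. Lig1 and Chaf1b then gave 0.51 and 0.57, with edgeR adjusted p-values of 0.157 and 0.183, and Pola1 and Prim1 were not called either. For Lig1 and Chaf1b the lowest old mouse other than 1187 had 56.5 and 25.5 counts, just under the top of the young range of 59.5 and 30 counts.

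Of 48 other mitosis genes, 22 passed the filter, and 4 were higher in old mice (18.2%, beside 16.3% of all genes) and none lower (median 0.23). Ncapg2, a condensin II subunit, had 5.5 to 23 counts in young and 21 to 215 counts in old mice (1.59, SE 0.37, edgeR adjusted p = 0.00456). Hmgb2, a chromatin protein of dividing cells, had 49.5 to 118.5 counts in young and 96.5 to 459.5 counts in old mice (1.06, SE 0.24, edgeR adjusted p = 0.00414). Incenp of the passenger complex gave 1.05 and Ncapd2 of condensin I gave 0.64, with edgeR adjusted p-values of 0.0321 and 0.0348. Ncapg2, Hmgb2 and Ncapd2 were also called without mouse 1187 (3 of 21 genes or 14.3%, beside 12.4% of all genes), where the median over the list was 0.001. With the other-cell score none of the 4 was called, with 0.37 for Ncapg2, 0.39 for Hmgb2, 0.09 for Ncapd2 and -0.04 for Incenp, and edgeR adjusted p-values of 0.250 to 0.942. In that fit 1 gene of the list was called, Smc2 of condensin, lower in old mice (-0.72, edgeR adjusted p = 0.0470), beside 5.95% of all genes called lower (Dna2 and Smc2 were picked after their values were seen). Of 36 cell cycle control genes 32 passed, with 1 higher (3.12%) and 3 lower (9.38%, beside 14.5% of all genes; median -0.05). Cdk4, the partner of cyclin D, was higher by 0.18 (SE 0.06, edgeR adjusted p = 0.0410), and was not called without mouse 1187. On the second cull day alone, which does not hold that mouse, Cdk4 was called higher (0.26, edgeR adjusted p = 0.0415). The repressor E2f6 was lower (-0.37), as were Tfdp1, the DNA-binding partner of E2F (-0.29), and E2f3 (-0.28), with edgeR adjusted p-values of 0.00451, 0.0200 and 0.0231. All 3 were also called among 6 of the list that were lower without mouse 1187 (18.8%, beside 12.1% of all genes). With the other-cell score 5 of 32 were called lower (15.6%, beside 5.95% of all genes) and 0 higher. These were E2f6, Tfdp1, Cdkn2c (-0.86), E2f2 (-0.95) and Ccnd3 (-0.30), the last 3 picked after their values were seen. In that fit E2f3 was not called (edgeR adjusted p = 0.0641). Cyclin D1 (Ccnd1) had 232.5 to 815.5 counts in young and 447 to 1649 counts in old mice (0.53, SE 0.22, edgeR adjusted p = 0.0696), with the top value in mouse 1187. Neither Cdkn1a, the p21 inhibitor (0.59, edgeR adjusted p = 0.198), nor Myc (-0.33, edgeR adjusted p = 0.735) passed. Without young mice 1184, 1186 and 1188, Cdkn1a was called higher (1.16, edgeR adjusted p = 0.0336), as was Ccnd1 (0.83, edgeR adjusted p = 0.0155). Ccnd1 was also called on the second cull day alone (0.84, edgeR adjusted p = 0.00468). Without those 3 young mice the calls of Pola1, Incenp, Ncapd2, Cdk4, Tfdp1 and E2f3 were lost, with edgeR adjusted p-values of 0.0651 to 0.203, and E2f6 was at -0.22 (edgeR adjusted p = 0.0419). On the second day alone Pola1, Pola2, Prim1, Incenp, Ncapd2, E2f6 and E2f3 were not called, with edgeR adjusted p-values of 0.105 to 0.305. On that day 3 genes of the lists on replication and mitosis were called lower, Mcm10, a replication initiation factor (-0.76, edgeR adjusted p = 0.0214), and the kinetochore genes Spc24 (-0.74, edgeR adjusted p = 0.00504) and Spc25 (-0.68, edgeR adjusted p = 0.0241), all 3 picked after their values were seen. The other mitosis genes then had 2 of 24 higher and 2 lower (8.33% each; median -0.12), and the other replication genes 2 of 34 higher and 1 lower, beside the 12.2% and 7.15% of all genes given above for that day.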

How the data were processed

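Poly(A) RNA of 19 libraries was measured, 1 per mouse number. The authors deposited 1 table of estimated counts per gene, made with HOMER on mm10 over exons of RefSeq transcripts with raw counts kept, per the file headers; STAR and GRCm38 are also named in the submitters' processing notes, without versions. Libraries are stranded, per the labels' protocols, but the strand setting of the counting and the handling of reads with several matches are not given in the sources used here. Counts came in steps of 0.5 and 29.2% of cells were not whole, so they were rounded (ties to even), although the tests were written for plain counts. Every row had a gene symbol. Totals over genes were 17381439 to 20287628.5 counts per library, and 3 counts per library was the floor for a count of 0, covering counting error only.

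Age was tested with edgeR 4.0.16 (R 4.3.3; quasi-likelihood, TMM scaling, filterByExpr by age with a minimum count of 10, cull day as covariate) with Benjamini-Hochberg adjustment over all 12269 genes that passed, at 0.05. The 9 genes below the filter were tested in the same fit without a filter, over 17806 genes. Alternatives were DESeq2 1.42.0, limma-voom 3.58.1 with sample weights, other scalings and filters, no cull day term, each cull day, an other-cell score (prior count 2) and leaving out mice. The scripts were tested on simulated data. Promoters came from RefSeq (GRCm38.p6), read with Python 3.11.15. Named genes were all 41, then up to 5 per list and direction with the smallest adjusted p, Ccnd1, Cdkn1a, Myc and 1 defining marker per list; the values of 1 such marker are not reported here. Members, lists and rules were chosen with earlier results of these data known. The settings that leave out 1187 together with another choice, and the unrounded counts, were added after seeing the data.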

Additional observations from a re-analysis of the deposited data

Results flagged for a closer look

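In 82 groups, 1 for each gene and age, the highest and lowest mouse were set against the others by Dixon's ratio, the gap to the nearest mouse divided by the range of the group, in CPM or, for the 9 genes below the filter, in counts. A ratio above Dixon's 95% critical value for the group's size passed. Chance does so in about 1 group in 20 where values are normally distributed. The groups of each age hold the same mice, so flags of 1 mouse in many genes are not independent. Old mouse 1187 passed as the highest in 36 of the 41 groups of old mice. For G1/S genes its ratios were 0.779 for Mcm2, 0.765 for Mcm3, 0.676 for Mcm4, 0.804 for Mcm5, 0.839 for Mcm6, 0.669 for Mcm7, 0.543 for Pcna, 0.653 for Rrm1, 0.553 for Rrm2, 0.645 for Tyms, 0.666 for Cdt1 and 0.75 for Cdc6. For G2/M genes they were 0.726 for Mki67, 0.796 for Top2a, 0.8 for Ccna2, 0.712 for Ccnb1, 0.877 for Ccnb2, 0.81 for Cdk1, 0.692 for Cdc20, 0.808 for Plk1, 0.523 for Aurka, 0.861 for Aurkb, 0.78 for Bub1 and 0.845 for Bub1b. For the remaining G2/M genes they were 0.69 for Birc5, 0.719 for Cenpa, 0.788 for Cenpe, 0.643 for Cenpf, 0.611 for Kif11, 0.854 for Kif20a, 0.753 for Kif23, 0.742 for Nusap1, 0.733 for Prc1, 0.795 for Tpx2, 0.837 for Ube2c and 0.901 for Foxm1. It was the mouse with the highest macrophage, T and NK, B and plasma, stellate, endothelial and neutrophil sums and the lowest hepatocyte sum of the old mice.

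Old mouse 1189 passed as the lowest for Tk1, at 0.517, where Afmid on the opposite strand was lowest too. Young mouse 1186 passed as the highest in 5 groups, with ratios of 0.592 for Ccne1, 0.746 for Mcm2, 0.583 for Mcm3, 0.488 for Mcm4 and 0.601 for Mcm5. All 5 are genes of the start of replication, and no G2/M gene of a young mouse passed. This mouse also had the highest Spp1 and Saa1 counts of the 19.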

How the results depend on the processing

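For the age effect, all genes called numbered 3785, which moved to 1495 with the other-cell score, 450 on the first cull day, 2389 on the second, 2214 with the score without 1187 and 243 on the first day without 1187, the last 4 with fewer mice. Of the 41 genes, 2 were called higher. This became 5 without a filter, 5 by DESeq2, 5 without the cull day term, 1 on the second cull day and 1 without young mice 1184, 1186 and 1188. It became 0 with the other-cell score (with or without 1187), on the first cull day (with or without 1187) and without 1187 and 1189. DESeq2 without a filter called the most, 9 of the 41 genes (22%), beside 16% of all genes called higher in that fit. Leaving out each mouse gave 1 to 5, with 1 without 1180, 1182, 1184, 1187, 1240 or 1242, 4 without 1185 or 1236 and 5 without 1183. These were 3.03% to 15.6% of the genes tested, beside 12.4% to 16.9% of all genes called higher in the same fits; without the cull day term 15.6% stood beside 15%, without the 3 young mice 3.03% beside 14.6%, and without 1187 and 1189 0 genes beside 13%. None was called lower except 2 on the second cull day. Of the genes below the filter, 3 were called by edgeR without a filter, and DESeq2 without a filter called 1 more. Without 1187 the unfiltered edgeR fit called 1 of them, and 2 of all 41 genes (4.88%, beside 9.54% of all genes). The interaction count was 0 and 10 by DESeq2. The cull day count of 1506 was 183 within young and 0 within old mice (1200 there at an unadjusted p of 0.05), and members called by cull day were 0, but 1 by DESeq2 (Mcm4, beside 17.2% of all genes) and 1 without 1187 (Pcna, 0.23, edgeR adjusted p = 0.0216, beside 13.1%).

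With the other-cell score the log2 fold changes of Mcm2, Mcm3, Mcm4, Mcm5 and Mcm6 were -0.76, -0.052, -0.43, -0.86 and -0.30, and those of Pcna, Rrm1, Tk1, Cdt1, Mki67 and Ccna2 were -0.14, -0.040, 0.076, -0.12, -0.036 and -0.079. In that fit Ccnb1, Ccnb2, Cdk1, Cdc20, Aurka and Bub1b were at -0.70, -0.60, -0.32, -0.56, -0.26 and -0.45, and Birc5, Cenpa, Nusap1, Prc1 and Tpx2 at -0.15, -0.12, -0.48, -0.15 and -0.026. On the second cull day Mcm5, Ccnb1, Cdk1, Cdc20, Aurka, Cenpa and Nusap1 were at -0.061, -0.57, -0.39, -0.46, -0.46, -0.13 and -0.064, and on the first Rrm2, Tyms, Tk1 and E2f1 at 0.41, 0.067, 0.028 and 0.27. By limma-voom Mcm5, Aurka, Cenpa and Nusap1 were at -0.020, -0.12, -0.063 and -0.012. Without young mice 1184, 1186 and 1188 Ccne1 was at 0.080 and Aurka at -0.006. E2f1 was at 0.054 with library totals, 0.011 when genes under 1 CPM on average were dropped and 0.009 without the cull day term, and Ube2c was at -0.091 unfiltered without 1187. Over fits that each left out 1 mouse, Mcm2 spanned -0.14 to 0.46, Mcm5 -0.054 to 0.72, Pcna -0.006 to 0.15, Rrm2 -0.27 to 0.024, E2f1 -0.14 to 0.064, Cdc20 -0.025 to 0.80, Aurka -0.10 to 0.13 and Cenpa -0.029 to 0.20. The causes were not tested.

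No paired analysis was possible because no mouse number is shared between ages. Depth limits the 9 genes below the filter, which had at most 23 counts in any mouse outside 1187, and the strand setting limits genes that overlap a neighbour.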
